A study of Mus musculus with 16 samples.

Results

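The mitochondrial ribosomal protein genes were taken as the genes whose symbol starts with Mrps or Mrpl followed by a digit, leaving out pseudogenes marked as such in the symbol. The rule found 77 genes among the 24015 entries of the expression table, and all 77 passed the filter on low values. Their RNA was measured by RNA-seq in microglia, the resident macrophages of the brain, which were sorted as live CD11b+CD45lo cells from the hippocampus of perfused mice. The comparison was between 6 aged samples, from mice 20 months old, and 6 young samples, from mice 3 months old. The strain label is C57BL/6 for every young sample and for aged samples 1 to 4, while aged 5 is labelled C57BL/7 and the libraries of aged 6 C57BL/8 and C57BL/9. Such labels, which count upwards even within aged 6, may be an error of entry. No genetic change or treatment is given for either age. Nothing in the labels tells single mice from pools, and p-values therefore cover only the spread among the 12 samples.

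Mitochondria keep a small genome that encodes core subunits of the respiratory chain and of ATP synthase, together with ribosomal and transfer RNAs. These messages are translated inside the organelle by the mitoribosome, whose RNA comes from that genome but whose proteins are all encoded in the nucleus, made in the cytosol and imported. Some of its proteins descend from bacterial ribosomal proteins, while others were added during the evolution of mitochondria. The small subunit holds the decoding centre, and the large subunit holds the peptidyl transferase centre and the exit tunnel, through which products reach the inner membrane.

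Of the 77 genes, 26 encode proteins of the small subunit and 50 of the large subunit. Mrps36 was placed in neither, since its product is now regarded as a subunit of the 2-oxoglutarate dehydrogenase complex. Among the placed genes, 46 encode homologues of bacterial proteins and 30 encode proteins specific to mitochondria. Symbols do not always give the subunit, because Mrps30 (protein mL65) and Mrps18a (mL66) encode proteins of the large subunit. The genes lie on 17 chromosomes, with 10 on chromosome 11 and 8 on chromosome 17.

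Nuclear genes for mitochondrial proteins are often controlled through binding sites of NRF1 and of ETS family factors such as GABP. RefSeq promoters (GRCm38.p6, 250 bases before to 50 after each transcription start) matched 68 of the 77 genes, in 74 promoters. The NRF1 motif GCGCANGCGC, searched on both strands, was present in 13 of them (17.6%), against 4.6% of all RefSeq promoters and 6.38% of those of protein-coding genes. The ETS motif CCGGAAG, also searched on both strands, was present in 25 (33.8%), against 8.86% of all and 11.6% of protein-coding promoters. At least 1 of the 2 motifs was found in 34 promoters (45.9%), against 12.6% of all and 16.7% of protein-coding promoters. Both occurred in 4 promoters, and the 2 motifs overlapped in 0. The promoters of the set had a median GC content of 58.5%, against 56.3% for protein-coding promoters. These matches describe letters in a window and were not tested as binding sites.

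The 150 bases before the RefSeq start are shown for 5 genes described below, as examples of each motif, with the motif in capitals. Mrpl44 (chr1:79775868-79776017, plus strand), Mrps21 (chr3:95871515-95871664, minus strand) and Mrpl17 (chr7:105811088-105811237, minus strand) carry the NRF1 motif. Mrps18a (chr17:46110854-46111003, plus strand) and Mrpl52 (chr14:54426759-54426908, plus strand) carry the ETS motif, which in Mrpl52 reads on the other strand. The NRF1 match of Mrps21 also reads on the other strand.
Mrpl44: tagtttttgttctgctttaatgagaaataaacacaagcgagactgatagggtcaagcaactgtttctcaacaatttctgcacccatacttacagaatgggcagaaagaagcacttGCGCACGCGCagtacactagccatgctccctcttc
Mrps21: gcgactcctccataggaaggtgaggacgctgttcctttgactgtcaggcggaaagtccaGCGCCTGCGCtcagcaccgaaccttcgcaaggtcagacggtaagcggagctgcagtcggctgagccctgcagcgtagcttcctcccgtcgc
Mrpl17: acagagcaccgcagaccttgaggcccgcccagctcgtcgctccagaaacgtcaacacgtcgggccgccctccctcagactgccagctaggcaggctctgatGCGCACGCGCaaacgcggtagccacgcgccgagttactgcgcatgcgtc
Mrps18a: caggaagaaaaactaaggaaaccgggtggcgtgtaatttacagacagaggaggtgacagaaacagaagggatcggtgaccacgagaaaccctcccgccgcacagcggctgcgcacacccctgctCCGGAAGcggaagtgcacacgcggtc
Mrpl52: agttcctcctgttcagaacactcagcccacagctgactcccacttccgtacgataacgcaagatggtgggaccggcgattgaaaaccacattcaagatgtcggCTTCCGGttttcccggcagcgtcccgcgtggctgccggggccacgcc

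Depth ran from 11.4 M reads in young 1 to an estimated 58.2 M in aged 6. Averages were 36.4 ± 14.8 M reads in aged and 39.0 ± 18.0 M in young samples (SD, n = 6 each). The sorted cells had the markers of microglia, whose 11 genes summed to 64055 to 71040 CPM (normalized counts scaled to the total of the sample) in aged samples, against 72091 to 76098 CPM in young samples. Of these 11, only Fcrls passed the threshold, at 89490 ± 6869 normalized counts in aged and 123873 ± 5703 in young samples (limma adjusted p 0.00038). Estimates were lower in aged samples for 8 of the 11 and higher for 3 (Sall1, Siglech and C1qa). Among summed markers of other cells, those of monocytes were higher in every aged sample, at 4.78 to 9.20 CPM against 2.46 to 4.71 CPM in young samples. Of the 8 monocyte markers, 3 passed the filter on low values and 0 passed the threshold. Ccr2 had the smallest p of these, at 99.4 ± 26.9 normalized counts in aged and 65.6 ± 19.6 in young samples (limma adjusted p 0.39). Summed markers of B cells were lower in aged samples, at 27.5 to 34.9 CPM against 36.2 to 45.8 CPM in young samples. Of the 5 B cell markers, only Cd79b passed the filter on low values, and 2 had no counts in any sample. Cd79b averaged 864 ± 72.0 normalized counts in aged and 1108 ± 85.2 in young samples (limma adjusted p 0.0379). The B cell sum therefore mainly follows this gene and is not a measure of B cell number. Choroid plexus markers, such as Ttr, ranged from 16.5 to 131.5 CPM in aged and from 9.95 to 49.3 CPM in young samples, and border macrophage markers from 5.89 to 25.6 CPM in aged and from 7.79 to 14.2 CPM in young samples. Astrocyte markers summed to 213.7 to 282.1 CPM in aged and 207.5 to 258.9 CPM in young samples, and of single astrocyte markers Aldh1l1 passed the threshold (57.2 ± 26.5 normalized counts in aged and 19.4 ± 8.37 in young samples, limma adjusted p 0.0411). Markers of T cells reached at most 0.304 CPM. The part of these cells in the results below was not tested. In this bulk measurement, fewer cells of a type and less RNA per cell cannot be told apart.

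The question set by the design was how RNA levels in hippocampal microglia differ between aged and young mice, asked here of the mitoribosome. None of the 77 genes passed the threshold of 0.05 on the limma adjusted p, in either direction. Over all 11579 tested genes, 200 passed it (1.73%), with 147 higher in aged samples (1.27%) and 53 lower (0.458%). At an unadjusted limma p under 0.05, 1 of the 77 stood, Mrpl24, against 10.8% of all tested genes. There was no gene of the set whose aged and young samples did not overlap, against 1.87% of all tested genes. On whole reads recovered from the 8 samples with 1 library each, edgeR's quasi-likelihood test and DESeq2 also called 0 of the 77, against 91 (0.786%) and 235 (2.03%) of all tested genes. Limma on these 8 samples called 0 of the 77 and 78 of all tested genes (0.674%).

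Fold changes are given as log2 differences, aged minus young, of normalized counts plus 1. In the set, 39 genes lay above 0 and 38 below, and the median was 0.000097, against 0.0016 over all tested genes. Single genes ran from -0.19 (Mrpl34) to 0.35 (Mrps36), or 0.879-fold to 1.27-fold. The median was -0.00016 for small subunit genes and -0.0061 for large subunit genes. It was -0.015 for homologues of bacterial proteins and 0.0097 for proteins specific to mitochondria. Summed over the set, aged samples held 1501 ± 157 CPM and young samples 1485 ± 118 CPM (SD, n = 6 each).

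The samples were spread narrowly enough to bound these differences. For 74 of the 77 genes (96.1%), the 95% limma interval of the log2 difference lay within 1.5-fold either way, against 74.3% of all tested genes. The 3 exceptions were Mrps36, Mrps21 and Mrpl52, described below. Among cytosolic ribosomal protein genes, 36 of 78 tested (46.2%) had an interval within 1.5-fold, and among nuclear genes of oxidative phosphorylation 53 of 74 (71.6%). The median width to either side of the estimate was 0.25 on the log2 scale, so a difference smaller than this could often not have been detected. This width takes no account of the adjustment over all tested genes, so larger differences could be missed as well. The estimates of Mrpl24 (0.30) and Mrps36 (0.35) were larger and did not pass the threshold.

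**Figure D1:**
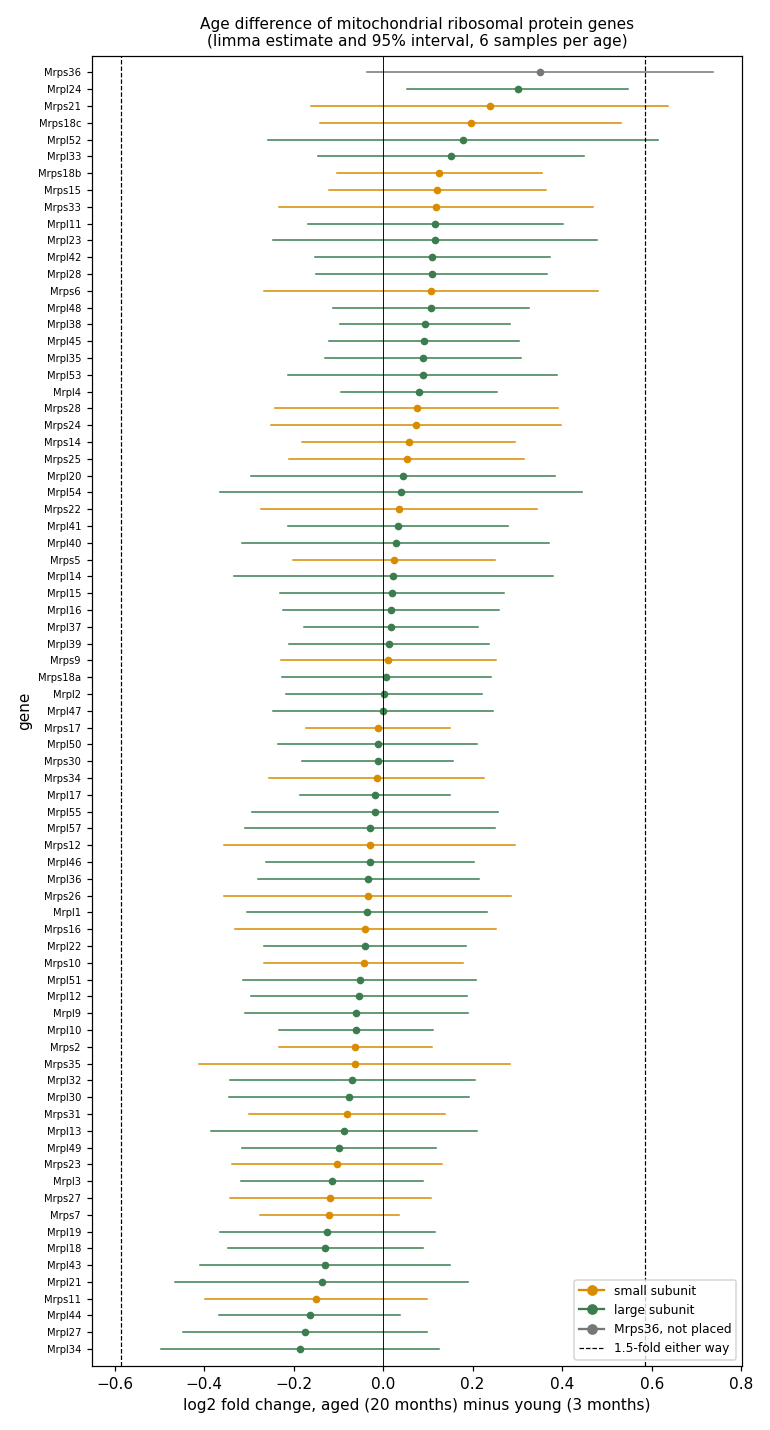
Age difference of each of the 77 genes, as the limma estimate (point) and 95% interval (line) of the log2 difference, aged minus young, on the x axis, with small subunit genes in orange, large subunit genes in green and Mrps36 in grey. The points run from -0.19 to 0.35 around 0, and 74 of the 77 intervals lie between the dashed lines that mark 1.5-fold.

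Mrpl24 encodes uL24m, a protein of the large subunit that binds its ribosomal RNA early in assembly in the bacterial counterpart. It lies on chromosome 3 (chr3:87919506-87923672, plus strand, GRCm38) and had 318, 366 and 456 normalized counts as lowest, median and highest of the aged samples, against 249, 309 and 344 in young samples. All 6 aged samples were above the young median, and 4 of them were above every young sample. The means were 370 ± 48.4 in aged and 300 ± 32.9 in young samples (SD, n = 6 each). The log2 difference was 0.30 (SE 0.117, 95% interval 0.05 to 0.55), or 1.23-fold, with a limma p of 0.0199 that did not pass adjustment (0.309). An exon of Rrnad1 overlaps Mrpl24 on the opposite strand, and the libraries do not mark strand.

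Mrps36 (chr13:100735955-100744659, minus strand) had the largest estimate of the set and the fewest counts. Its lowest, median and highest values were 80.0, 115 and 138 normalized counts in aged and 61.4, 88.5 and 102 in young samples, with 4 aged samples above every young one. The log2 difference was 0.35 (95% interval -0.04 to 0.74, limma adjusted p 0.535). Its coding sequence has 4 near-identical pseudogene copies, so its reads may have been split or shared in counting.

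Among the 10 genes with the smallest unadjusted p, 6 had lower estimates in aged samples. Mrpl44 (chr1:79776018-79781445, plus strand) encodes mL44, a protein specific to mitochondria with a ribonuclease III fold, whose human gene is known from inherited cardiomyopathy. It had 575, 629 and 726 normalized counts as lowest, median and highest of the aged samples, against 605, 715 and 818 in young samples. The ages overlapped, with 5 aged samples under the young median, and the log2 difference was -0.16 (95% interval -0.37 to 0.04, limma adjusted p 0.616). Its exons overlap Wdfy1 on the opposite strand.

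Mrps7 (chr11:115603925-115608036, plus strand) encodes uS7m, which binds ribosomal RNA in the head of the small subunit. It had 921, 979 and 1099 normalized counts as lowest, median and highest in aged samples, against 1011, 1070 and 1137 in young samples. Of the aged samples 4 were below every young one, but aged 3 was above all young samples except young 3 and young 4. The means were 989 ± 62.7 in aged and 1074 ± 46.4 in young samples (SD, n = 6 each), a log2 difference of -0.12 (95% interval -0.28 to 0.04, limma adjusted p 0.655). Exons of Gga3 and Mif4gd overlap it on the opposite strand.

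Of the other genes of these 10, Mrpl27 encodes bL27m, near the peptidyl transferase centre, and averaged 322 ± 55.7 normalized counts in aged and 362 ± 47.4 in young samples, with 4 aged samples below every young one (log2 difference -0.18). Mrpl18 (uL18m) averaged 648 ± 79.7 in aged and 708 ± 75.5 in young samples (-0.13), and Mrps11 (uS11m) 402 ± 57.5 in aged and 445 ± 52.7 in young samples (-0.15). Mrpl34 (bL34m) had the lowest estimate of all, -0.19, at 365 ± 83.5 in aged and 408 ± 44.7 in young samples. Mrps21 (bS21m) stood at 328 ± 91.0 in aged and 272 ± 51.1 in young samples (0.24), and Mrps18c (bS18m) at 340 ± 71.6 in aged and 296 ± 59.0 in young samples (0.20; SDs, n = 6 each). Limma adjusted p-values of these 6 ran from 0.745 to 0.784, and the ages overlapped in each.

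**Figure D2:**
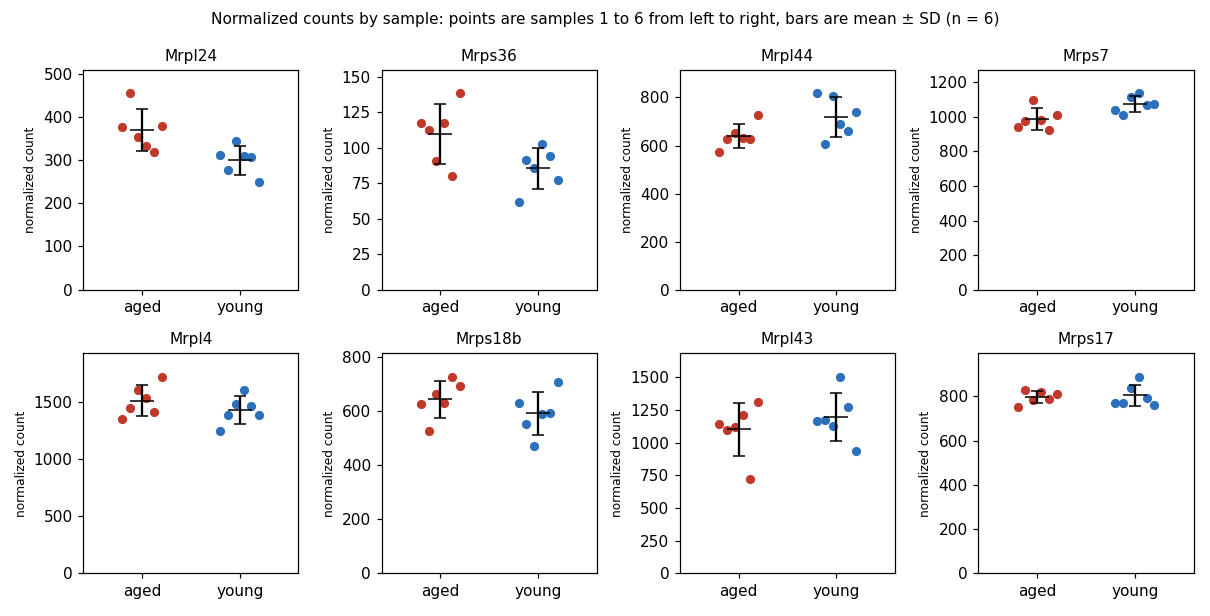
Normalized counts of 8 genes in each sample, with aged (20 months) left of young (3 months), samples 1 to 6 from left to right within an age, and bars for the mean ± SD (n = 6 each). The ages overlap in every panel. Mrpl24 averages 370 in aged and 300 in young samples, and Mrpl43 has its lowest value, 725, in aged 5.

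Levels of different genes were compared per kilobase of the representative GENCODE transcript, since a longer transcript yields more reads. Mrpl4, whose product uL4m lines the exit tunnel, had the highest level, 1142 normalized counts per kilobase averaged over the 12 samples, followed by Mrps15 (uS15m) with 962 and Mrpl52 (mL52) with 923. The lowest levels per kilobase were those of Mrps25 (mS25) with 49.2 and Mrpl47 (uL29m, at the tunnel exit) with 57.1. Long transcripts weigh on this order: per kilobase of coding sequence, Mrpl43 (mL43) had the highest level, 2408, Mrpl47 the lowest, 254, and Mrps25 stood at 582.

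The genes with the most reads did not separate the ages either. Mrpl4 (chr9:21002738-21008839, plus strand) had 1349, 1490 and 1720 normalized counts as lowest, median and highest of the aged samples, against 1250, 1427 and 1608 in young samples (log2 difference 0.08, limma adjusted p 0.838). Mrps2 (uS2m) averaged 1258 ± 90.0 in aged and 1314 ± 116 in young samples (-0.06), and Mrpl17 (bL17m) 1156 ± 89.7 in aged and 1169 ± 75.6 in young samples (-0.02). Mrpl43 averaged 1100 ± 200 in aged and 1197 ± 185 in young samples (-0.13; SDs, n = 6 each), and its lowest aged value, 725 in aged 5, stood apart from the next, 1093. Mrpl43 lies next to Twnk, the gene of the mitochondrial DNA helicase, whose exons overlap it on the opposite strand. With Mrps36 and Mrps6, the fewest counts were those of Mrpl47, at 192 ± 16.5 in aged and 192 ± 10.3 in young samples (0.000097), and Mrpl21 (bL21m), at 192 ± 40.1 in aged and 209 ± 27.1 in young samples (-0.14, limma adjusted p 0.86).

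Some genes were named for the place or role of their products. Mrps12 encodes uS12m of the decoding centre and averaged 355 ± 66.3 normalized counts in aged and 361 ± 65.5 in young samples (log2 difference -0.03). Mrpl11 (uL11m), at the base of the stalk that recruits translation factors, averaged 410 ± 57.1 in aged and 381 ± 70.6 in young samples (0.12). Mrpl12 (bL12m), which forms the stalk and in human cells also binds the mitochondrial RNA polymerase, averaged 725 ± 125 in aged and 746 ± 64.7 in young samples (-0.05). Limma adjusted p-values of these 3 ran from 0.862 to 0.973, and each had aged samples on both sides of the young median.

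Mammals have 3 paralogues of the bacterial protein bS18, and their products sit in different places. Mrps18c encodes the bS18m of the usual site, with the values given above. Mrps18b (mS40), also in the small subunit, had 525, 647 and 725 normalized counts as lowest, median and highest in aged samples, against 472, 591 and 709 in young samples (log2 difference 0.13, limma adjusted p 0.798). Mrps18a (mL66), in the large subunit, had 536, 588 and 717 in aged samples, against 484, 589 and 711 in young samples (0.0072, limma adjusted p 0.991). All 3 estimates were above 0, but none passed the threshold, and the intervals of all 3 included 0. That of Mrps18a fell below 0 with scaling to an upper quartile or quantile normalization (-0.0052 and -0.017).

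Human variants in MRPS22 and MRPS34 cause inherited defects of mitochondrial translation. Mrps22 (mS22) averaged 288 ± 54.6 normalized counts in aged and 279 ± 37.4 in young samples (log2 difference 0.04), and its estimate turned to -0.15 with limma on the 8 samples with 1 library. Mrps34 (mS34) averaged 707 ± 59.3 in aged and 722 ± 131 in young samples (-0.01; SDs, n = 6 each), and turned to 0.02 on those 8 samples. Exons of Nme3 overlap Mrps34 on the same strand and may share its reads, and exons of Mapk8ip3 overlap it on the opposite strand. Mrps30 (mL65) averaged 959 ± 73.3 in aged and 967 ± 60.0 in young samples (-0.01). Mrps6 (bS6m) averaged 166 ± 35.4 in aged and 154 ± 30.2 in young samples (0.11), but its gene spans Slc5a3 on the same strand, which may share its reads. Mrps5 (uS5m) was named after its values were seen, as a gene below its own mean in aged 6. Its expression has been linked to lifespan in mouse strains. Mrps5 averaged 367 ± 28.5 in aged and 362 ± 41.5 in young samples (0.02, limma adjusted p 0.967). Limma adjusted p-values of the other 4 ran from 0.91 to 0.983.

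Spread between samples differed several-fold between genes of the set. It was smallest in Mrps17 (uS17m), with an SD within ages of 0.0714 on the log2 scale and 796 ± 28.3 normalized counts in aged against 804 ± 49.4 in young samples, and was also small in Mrps7 (0.077) and Mrps30 (0.1). It was largest in Mrpl52 (0.426), followed by Mrps21 (0.373) and Mrpl54 (mL54, 0.369). Mrpl52 ran from 212 in aged 5 to 591 in aged 2, with an aged median of 414, against 268, 357 and 440 as lowest, median and highest of the young samples. Mrpl54 averaged 239 ± 59.2 in aged and 232 ± 56.6 in young samples. The median SD within ages was 0.2 over the set and 0.216 over all tested genes. These 3 genes of wide spread have representative transcripts under 1 kb, while Mrps17 has one of 5061 bases, of which 360 are coding. Across the set, spread fell with transcript length (rank correlation -0.53) and about as much with mean level (-0.56).

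The 44 genes outside the 33 chosen for naming had means of 211 to 1004 normalized counts in aged and 191 to 1043 in young samples. Their log2 differences ran from -0.12 to 0.15, and their limma adjusted p-values from 0.793 to 0.998. Across the set, 27 genes overlap an exon of another gene on the opposite strand, 5 overlap 1 on the same strand, and 17 have a near-identical pseudogene copy of their coding sequence. Mrps11 and Mrpl46, 2 genes of the set on chromosome 7, overlap each other on opposite strands. The 35 genes with no such overlap or copy had a median log2 difference of 0.018, with a range of -0.19 to 0.20.

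While the ages did not part, the genes moved together from sample to sample. For each gene the deviation from its own mean over the 12 samples was taken on the log2 scale, and the median over the 77 genes gave the position of a sample. The positions of aged samples 1 to 6 were 0.02, 0.12, -0.03, -0.01, -0.24 and 0.20. Those of young samples 1 to 6 were -0.08, -0.12, 0.07, 0.11, 0.12 and -0.07. The lowest and the highest sample were thus both aged, 1.36-fold apart, and all young samples lay between them. The position over all tested genes spanned 1.01-fold, which the authors' normalization holds near 0 in every sample.

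Aged 5 was the low sample. In it 37 of the 77 genes had their lowest value of all 12 samples (48.1%, against 16.3% of all tested genes), and 70 were below their own mean. Mrpl52 was lowest there relative to its mean, with a deviation of -0.80, followed by Mrpl14 with -0.75. Of the 7 genes above their mean in aged 5, Mrps18b was the highest with a deviation of 0.24, and the other 6 were Mrps27, Mrps10, Mrpl21, Mrpl37, Mrpl1 and Mrpl35. Summed markers of choroid plexus (131.5 CPM), astrocytes (282.1 CPM) and oligodendrocytes (263.0 CPM) were highest in aged 5, and those of microglia lowest (64055 CPM). Aged 2 and aged 6, which stood above 0, came next in choroid plexus markers, at 89.6 and 86.8 CPM, and aged 2 next lowest in microglia markers, at 65965 CPM.

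Aged 6 was the high sample, followed by aged 2, young 5 and young 4, which lay close together. In aged 6, 19 genes had their highest value (24.7%, against 10.4% of all tested genes), and 72 were above their own mean. The 5 below it were Mrpl1, Mrps10, Mrpl47, Mrps7 and Mrps5. In aged 2, 20 genes had their highest value (26.0%, against 8.77% of all), led by Mrpl52 with a deviation of 0.67, while 58 were above their own mean, against 64 in young 5 and 61 in young 4.

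**Figure D3:**
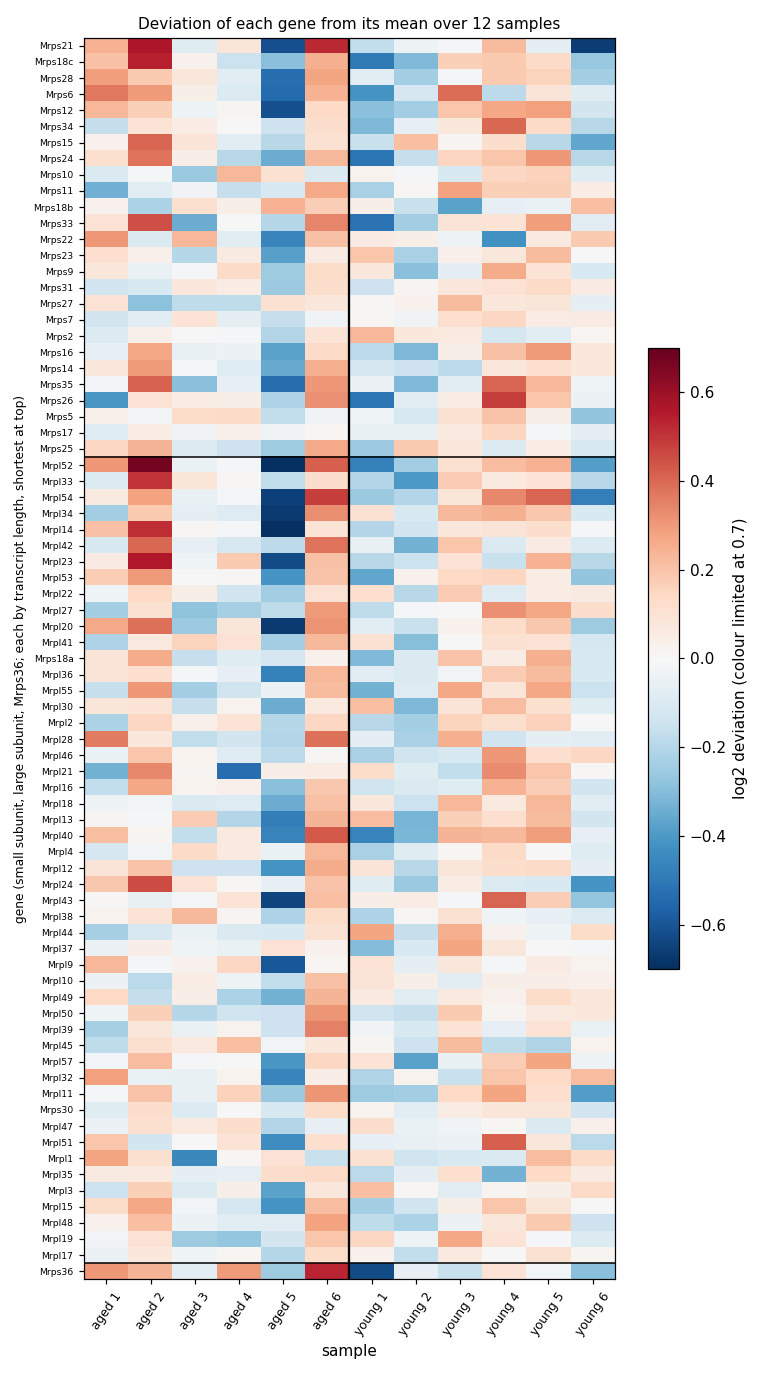
Deviation of each of the 77 genes (y axis, small subunit on top, then large subunit, then Mrps36) from its own mean over 12 samples on the log2 scale (colour, red above and blue below), with aged samples left of young samples on the x axis. The aged 5 column is blue for 70 of 77 genes and the aged 6 column red for 72, and within each subunit the shortest transcripts are on top.

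Aged 5 was also the lowest sample, by a larger step, in other gene groups for protein synthesis and respiration. Cytosolic ribosomal protein genes stood at -0.73 in aged 5 and at 0.62 in aged 2, 2.56-fold apart. Nuclear genes of oxidative phosphorylation spanned 1.77-fold, from -0.46 in aged 5 to 0.37 in aged 2. Small and large subunit genes of the mitoribosome took nearly the same positions, with -0.25 and -0.23 in aged 5 and 0.16 and 0.20 in aged 6. Mitoribosome subunits under other symbols stood at -0.25 in aged 5 and 0.20 in aged 6, and assembly factors at -0.14 and 0.14. Translation factors of mitochondria stood at 0.01 in aged 5 and 0.04 in aged 6, and mitochondrial aminoacyl-tRNA synthetases at -0.01 and 0.03. Whether these lists differ was not tested.

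**Figure D4:**
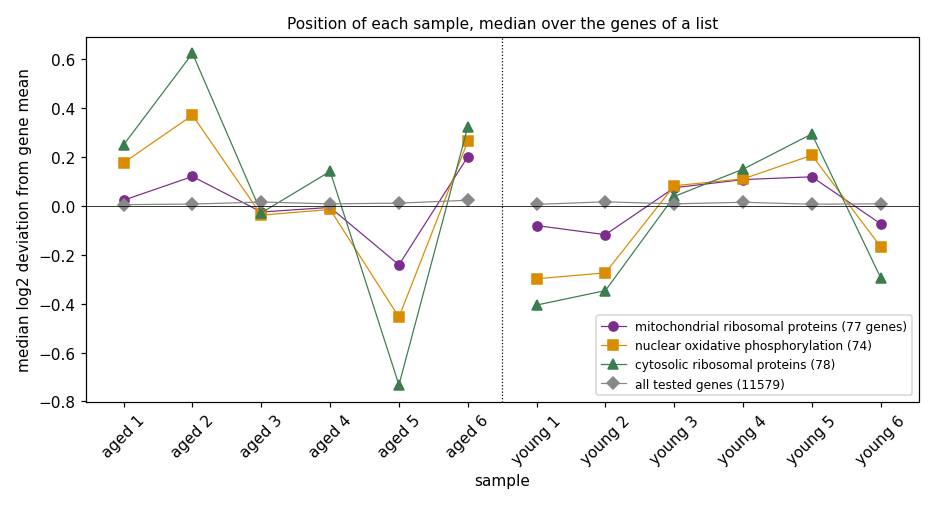
Position of each sample, as the median log2 deviation from the gene mean over the genes of a list (y axis), for aged samples 1 to 6 and then young samples 1 to 6 (x axis). Mitochondrial ribosomal protein genes run from -0.24 in aged 5 to 0.20 in aged 6, while cytosolic ribosomal protein genes run from -0.73 in aged 5 to 0.62 in aged 2.

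Transcript length went with the deviations in some samples, among them aged 5 and aged 6. The rank correlation (Spearman) of length and deviation over genes outside the set was 0.34 in aged 5 and -0.43 in aged 6, but -0.01 in aged 2. Over the 77 genes it was 0.31 in aged 5, -0.29 in aged 6 and -0.40 in aged 2. In aged 5, tested genes outside the set had a median deviation of -0.39 for representative transcripts under 1 kb (650 genes), -0.13 for 1 to 2 kb, 0.03 for 2 to 4 kb and 0.15 for over 4 kb (3441 genes). The mitochondrial ribosomal protein genes stood at -0.35 under 1 kb (25 genes), -0.20 for 1 to 2 kb (28 genes), -0.20 for 2 to 4 kb (15 genes) and -0.20 over 4 kb (9 genes). By representative transcript, short genes of the set were thus about as low in aged 5 as other short genes, while its long genes were low where other long genes were high. In aged 6, genes outside the set stood at 0.26, 0.14, 0.02 and -0.14 in the same classes, against 0.23, 0.18, 0.13 and 0.22 in the set. The classes over 2 kb hold few genes of the set, and they depend on the transcript chosen. Mrpl17, for example, has 7300 bases of which 528 are coding. By coding length, the set stood in aged 5 at -0.25 under 1 kb (66 genes) and -0.17 over 1 kb (11 genes). Genes outside the set stood at -0.13 and 0.07 in these coding classes. The part of length in the positions of the set was not tested further.

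**Figure D5:**
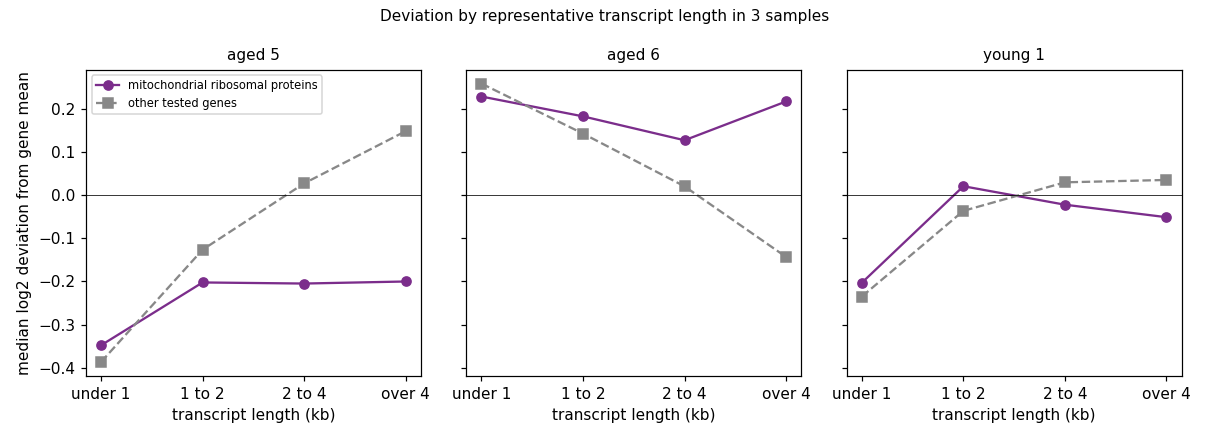
Median log2 deviation from the gene mean (y axis) by class of representative transcript length (x axis) in aged 5, aged 6 and young 1, for mitochondrial ribosomal protein genes (purple circles) and all other tested genes with a length (grey squares). Other genes rise with length from -0.39 to 0.15 in aged 5 and fall from 0.26 to -0.14 in aged 6, while genes of the set stay between -0.35 and -0.20 in aged 5 and between 0.13 and 0.23 in aged 6.

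The rest of the mitochondrial translation apparatus was read from the same limma comparison. None of these lists had a gene past the threshold in either direction, and the gene with the smallest p of each is given. Counts at an unadjusted p under 0.05 stand against 10.8% of all tested genes, and counts above 0 against 5850 of 11579. Mitoribosome subunits under other symbols (6 genes) had a median log2 difference of 0.03 and 0 genes at an unadjusted p under 0.05. Among them Chchd1 (mS37) averaged 153 ± 48.9 normalized counts in aged and 193 ± 38.4 in young samples (limma adjusted p 0.567), and Ict1, the codon-independent release factor mL62 now named Mrpl58, averaged 291 ± 56.7 in aged and 297 ± 29.1 in young samples (0.95). Of 18 tested assembly factors (median -0.03), 1 had an unadjusted p under 0.05, the RNA helicase gene Ddx28, at 721 ± 41.7 in aged and 848 ± 112 in young samples (0.395). Of 15 translation factors (median -0.03), 0 did, and Tsfm, the exchange factor of the elongation factor Tufm, stood at 408 ± 62.1 in aged and 472 ± 43.3 in young samples (0.532).

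Mitochondrial aminoacyl-tRNA synthetases, which charge transfer RNAs, had a median log2 difference of -0.06 over 17 genes. Of these, 3 had an unadjusted limma p under 0.05, with the smallest in Pars2 (prolyl-tRNA synthetase) at 289 ± 68.6 normalized counts in aged and 369 ± 47.3 in young samples (adjusted p 0.344). For transcription and maintenance of mitochondrial DNA, the median over 13 genes was 0.02 and 0 had an unadjusted p under 0.05. Tfb2m, a transcription initiation factor, averaged 212 ± 27.0 in aged and 250 ± 20.5 in young samples (limma adjusted p 0.501). Of 9 tested regulators of nuclear genes for mitochondria (median 0.01), 1 had an unadjusted p under 0.05, Gabpb1, a subunit of GABP, at 1414 ± 136 in aged and 1610 ± 148 in young samples (adjusted p 0.412).

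The products of the mitoribosome work beside nuclear subunits of oxidative phosphorylation, whose 74 tested genes had a median log2 difference of 0.11, with 57 above 0. Of them 1 had an unadjusted limma p under 0.05, Ndufa1 of complex I, at 522 ± 126 normalized counts in aged and 390 ± 83.3 in young samples (adjusted p 0.365). Cytosolic ribosomal protein genes had a median of 0.18 over 78 tested, with 74 above 0 and 0 at an unadjusted p under 0.05. Rps18 was nearest, at 812 ± 162 in aged and 654 ± 133 in young samples (limma adjusted p 0.487). Mitochondrial ribosomal protein genes thus had a median nearer to 0 than either group, and whether the groups differ was not tested. With age means removed, the mean correlation between pairs of genes was 0.84 for cytosolic ribosomal proteins and 0.62 for oxidative phosphorylation. It was 0.40 for mitochondrial ribosomal proteins. Genes of a group moved together across samples, so counts above 0 are not counts of separate observations.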

How the data were processed

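The authors deposited normalized counts, a signal value per gene, in 1 column for each of 12 samples. Per the series' design text and the submitters' processing notes, bcl2fastq, fastx_trimmer, STAR (genome mm10), samtools and DESeq2 served for demultiplexing, trimming, alignment, counting and the comparison of ages. The sources used here give neither their versions nor the annotation. SmartSeq v4 cDNA and Nextera XT libraries do not mark the strand. The columns of young 2, young 4, aged 3 and aged 6 each stand for 2 technical replicate libraries. Their values up to 5 were checked to be sums of whole multiples of 2 steps. A mean of 2 libraries would give this, but the check does not tell a mean from another weighting. In the other 8 columns, every positive value was a whole multiple of 1 step within 0.1 read, so whole reads were recovered from these 8 (100% of values whole).

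Genes with at least 10 normalized counts in 6 of 12 samples were tested (11579). The comparison of ages used limma 3.58.1 (R 4.3.3), fitted with a mean-variance trend on log2 of the normalized count plus 1, two-sided, with Benjamini-Hochberg adjustment over all tested genes at 0.05. The pseudocount understates changes of low genes. The method was tested on simulated data. Alternatives included edgeR 4.0.16 and DESeq2 1.42.0 on the recovered reads.

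Named genes were the 10 with the smallest p, the 4 with the most and the 4 with the fewest counts, the 3 with the largest and the 3 with the smallest spread within ages, and those listed for a role. The smallest p of each related list was also named. Mrps5, Mrps10, Mrps15, Mrps25, Mrpl1 and genes named only for their place in a sample were added after their values were seen. The genes and lists were chosen with earlier results of these data known. Coordinates, lengths and overlaps came from GENCODE M21 (GRCm38), where a copy is a pseudogene match of at least 95% identity over 150 coding bases. A transcript length was found for 95.4% of tested genes. Same-numbered samples of the ages were not treated as pairs in the main test, as given in the closing section. Levels per coding kilobase replaced a planned comparison by protein length.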

Additional observations from a re-analysis of the deposited data

Results flagged for a closer look

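Mrpl43 had 725 normalized counts in aged 5, the lowest of the aged samples, while the nearest other aged sample had 1093 and the highest 1313. The gap divided by the range was 0.626, just past Dixon's critical value of 0.625 for 6 samples. Over all 77 genes and both ages, 4 of 154 groups of 6 samples went past this value, where chance would give about 1 in 20.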

How the results depend on the processing

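The count of mitochondrial ribosomal protein genes past the threshold was 0 in all 27 alternatives run. At an unadjusted p under 0.05 there were 0 to 4 genes when 1 sample was left out and 1 to 2 otherwise, and the lowest adjusted p of a named gene was 0.213 (Mrpl24). Their median log2 difference ran from -0.03 to 0.04 with 1 sample left out and from -0.02 to 0.03 otherwise. The count of all genes past the threshold ran from 134 to 235 with 1 sample left out. On the 8 samples with 1 library it was 78 with limma, 91 with edgeR and 235 with DESeq2.

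Of 33 named genes over 27 alternatives, 823 of 891 estimates kept their sign and 68 changed it, in genes with estimates near 0. None of these genes passed the threshold in any alternative. On the 8 samples, limma, edgeR and DESeq2 gave -0.016, -0.030 and -0.027 for Mrpl54, 0.020, 0.0056 and 0.0025 for Mrps34, 0.058, 0.059 and 0.058 for Mrps10, -0.013, -0.0037 and -0.00024 for Mrpl47, 0.037, 0.037 and 0.038 for Mrpl1, 0.0091, 0.0084 and 0.0063 for Mrps17, and -0.15, -0.13 and -0.13 for Mrps22. Upper quartile scaling gave -0.0052 for Mrps18a and -0.012 for Mrpl47, and quantile normalization -0.017 and -0.041. Without aged 5 and 6, Mrps12 was at 0.081. The cause was not tested. With 1 sample left out, the ranges that crossed 0 were -0.053 to 0.17 for Mrpl54, -0.079 to 0.064 for Mrps34, -0.094 to 0.0040 for Mrps10, -0.024 to 0.041 for Mrpl47, -0.095 to 0.050 for Mrpl1, -0.027 to 0.017 for Mrps17, -0.046 to 0.13 for Mrps22, -0.053 to 0.057 for Mrps18a, -0.091 to 0.090 for Mrps12, -0.041 to 0.0077 for Mrps30, -0.11 to 0.025 for Mrpl12, -0.054 to 0.020 for Mrpl17 and -0.029 to 0.066 for Mrps5.

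Same-numbered samples of the ages were not treated as pairs. Their deviations correlated at -0.12 to 0.11, and 3 of 12 samples correlated best with their own number. Correlations this weak cannot show whether these samples shared a batch. With the number as a replicate block, 0 genes of the set and 145 of all genes passed. The lowest value of any gene of the set in any sample was 61.4 normalized counts, and the precision is set by 6 samples per age. The authors' normalization would hide a shift of all transcripts together.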
